A study of Mus musculus with 12 samples.

Results

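The 8 genes described here are Sox genes of groups SoxC (Sox4 and Sox12), SoxD (Sox5, Sox6 and Sox13), SoxF (Sox17 and Sox18) and SoxG (Sox15). Sox11, also of SoxC, and Sox7, also of SoxF, are not among the 8 and were read with the other Sox genes. The 8 were taken by symbol, and each had 1 row under that symbol among 51826 rows of the sperm table and among 23502 rows of the testis table. All 8 passed the filter on low counts in both tables, in which 20945 and 16821 genes were tested. RNA-seq counts came from 4 groups of 3 libraries of C57BL/6J mice. WT sperm and Xap5l KO sperm were mature sperm from the cauda epididymis at P56, and Xap5l KO is a global CRISPR/Cas9 knockout. WT testes and Xap5 cKO testes were whole testes at P16, in which a floxed Xap5 allele was deleted by Cre under control of Stra8, a gene of premeiotic male germ cells. The methods give Xap5 fl/Y males as the controls of the cKO, and the labels call them WT. Somatic cells of the testis keep Xap5 in this model and contributed RNA to every testis library, so that fewer cells of a type and less RNA per cell cannot be told apart. Totals ranged from 38881197 to 52308452 counts in sperm libraries and from 32251198 to 36759054 in testis libraries.

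Sox proteins carry an HMG box related to that of Sry, which binds the minor groove of DNA and bends it. SoxC proteins are transcriptional activators of neural and mesenchymal progenitors. SoxD proteins have no activation domain of their own, and the long forms pair through a coiled coil. SoxF proteins act in endothelium and endoderm, and Sox15 acts in myogenic and trophoblast cells. In the testis Sox5 is best known for a short mRNA of spermatids, whose protein keeps the HMG box without the coiled coil and has been linked to the sperm tail genes Spag6, Spag16 and Catsper1.

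The targeted genes were read first as a check of the labels. Xap5l, listed as Fam50b, had 574, 440 and 419 counts across WT sperm, against 18, 23 and 8 across Xap5l KO sperm. Xap5, listed as Fam50a, had 819, 811 and 988 counts across WT testes, against 673, 616 and 651 across Xap5 cKO testes. The Fam50a libraries did not overlap in testes, and the log2 fold change, mutant over WT (log2FC below), was -0.33 (SE 0.126, adjusted p = 0.0495). Each adjusted p came from the quasi-likelihood F-test of edgeR and was corrected over all tested genes by Benjamini-Hochberg. The counts cover the whole gene and do not separate the deleted part. Each gene was also read where it was not the target. Fam50a had 548, 705 and 689 counts across WT sperm, against 296, 487 and 649 across Xap5l KO sperm (log2FC -0.76, adjusted p = 0.0393), and Fam50b had 532, 539 and 197 across WT testes, against 6, 0 and 7 across Xap5 cKO testes (log2FC -6.48, adjusted p = 8.09e-05).

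The gene models of the 8 genes differ widely. In the GENCODE annotation of GRCm38, Sox5 spans 953.55 kb of chromosome 6 (143828425 to 144781977, minus strand) with 14 annotated transcripts, and Sox6 spans 567.92 kb of chromosome 7 (115470872 to 116038796, minus strand) with 16. Sox13 lies on chromosome 1 (133382303 to 133424377), Sox17 on the same chromosome (4490931 to 4497354), Sox12 and Sox18 on chromosome 2 (152393611 to 152398063 and 181669836 to 181671640), Sox4 on chromosome 13 (28948919 to 28953713), all on the minus strand, and Sox15 on chromosome 11 (69655314 to 69656727, plus strand). Sox4 and Sox12 have a single merged exon each, the usual form of a SoxC gene.

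Sox5 has a pair of start regions for its 7 protein-coding transcripts. The 4 long ones, Sox5-201, Sox5-202, Sox5-205 and Sox5-214, start between 144209452 and 144209568 and are 2526 to 7243 bases long. The other 3, Sox5-204, Sox5-206 and Sox5-211, start 262.5 kb further along the gene, within 100 bases of 143947106, and are 614 to 1734 bases long. A count per gene adds both kinds. The primer pair that the study lists for Sox5 real-time PCR is shown because it tells the long from the short form.
Sox5 forward: ctgccgccattgatgattcc
Sox5 reverse: ccagccttgtagctgaaacca
The forward primer lies at chr6:143960886-143960905 and the reverse primer at chr6:143960802-143960822, both in exon 7 of the 15 exons of Sox5-201. The 104-base product is contained in all 4 long coding transcripts and in none of the 3 short ones, so an assay with these primers does not read the short form.

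**Figure D1:**
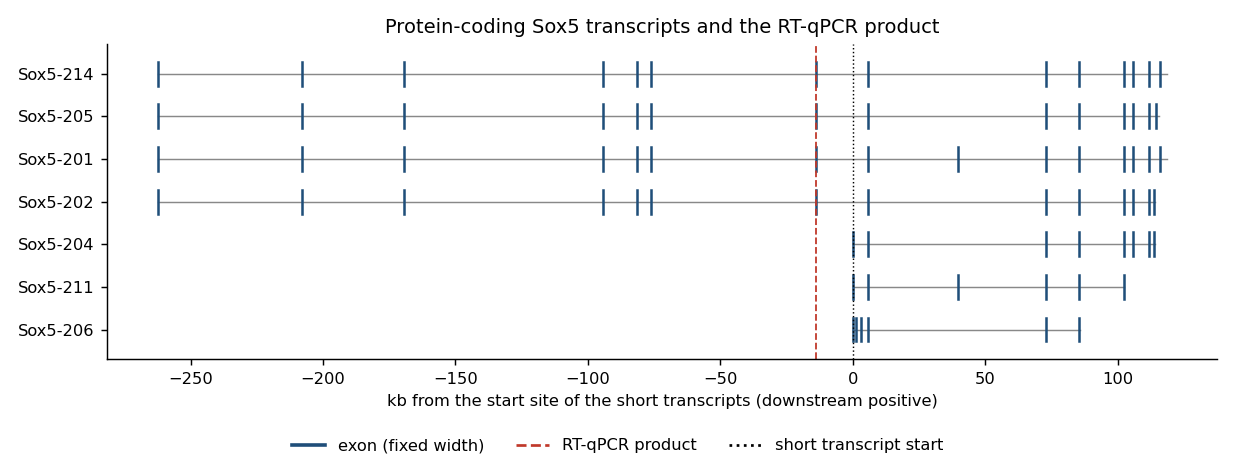
Map of the 7 protein-coding Sox5 transcripts of GENCODE, in kb from the start of the short transcripts, with exons as bars of fixed width. The dashed line marks the PCR product, which crosses an exon of the 4 long transcripts and lies upstream of the start of the 3 short ones.

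RefSeq promoter windows, 250 bases before to 50 after a start site (GRCm38.p6), were given for 6 of the 8 genes, without Sox17 and Sox18. Sox6 had 6 windows and Sox4, Sox5, Sox12, Sox13 and Sox15 had 1 each. They were searched on both strands for the GC box CCCCGCCC (GGGCGGGG on the other strand), the sequence that the study gives as common to the Xap5 and Xap5l binding motifs. One Sox6 window (chr7:116030998-116031297, minus strand) held 2 matches, whose first bases lay 198 and 117 bases before the start site. The other Sox6 windows and those of the 5 other genes held none, and 17.6% of all 32851 windows held at least 1. The Sox6 stretch with both GC boxes in capitals (chr7:116031148-116031257, minus strand) and the 250 bases before the short Sox5 start (chr6:143947107-143947356, minus strand) are shown, the latter because it is the start that the primers miss.
Sox6 upstream stretch: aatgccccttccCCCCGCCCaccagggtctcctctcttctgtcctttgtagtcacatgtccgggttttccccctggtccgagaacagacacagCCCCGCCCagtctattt
Sox5 upstream stretch: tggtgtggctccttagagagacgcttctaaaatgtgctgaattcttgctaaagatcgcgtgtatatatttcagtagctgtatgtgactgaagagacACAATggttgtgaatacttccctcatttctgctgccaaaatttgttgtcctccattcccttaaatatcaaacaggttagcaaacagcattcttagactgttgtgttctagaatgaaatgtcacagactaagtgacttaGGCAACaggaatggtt
The capitals in the Sox5 stretch mark a Sox core site (ACAAT or ATTGT, in 31% of all windows) and a short RFX motif (GTTGCC or GGCAAC, in 12.5%), which do not overlap and were searched after the Sox5 counts had been seen. Sox core sites also occurred in 3 of the 6 Sox6 windows, with 7 matches, and once in the Sox15 window, and the RFX motif in no other window of these genes. A match is a run of letters, and no binding was measured here.

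In Xap5l KO sperm, Sox5 was the only one of the 8 genes to pass the test, with 2.65 times its WT level. Sox6 and Sox17 had fitted changes of 1.75-fold and 2.29-fold upward and did not pass, and Sox4, Sox12 and Sox13 had fitted changes downward and did not pass either. A gene was called at an adjusted p under 0.05 and a fold above 2. By that rule 7.59% of all tested genes were called higher and 1.27% lower, against 1 and 0 of these 8. At any fold, 9.02% of tested genes were higher and 3.07% lower, again against 1 and 0. The median log2FC of the 8 was 0.54, and that of all tested genes was -0.08.

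Among the SoxD genes, Sox5 had 583, 609 and 549 counts across WT sperm, against 1852, 2023 and 1594 across Xap5l KO sperm. Scaled to library size by TMM, this was 14.7 ± 2.92 CPM in WT and 38.9 ± 12.9 CPM in KO (SD, n = 3). All 3 KO libraries lay above all 3 WT libraries, and the lowest KO library, replicate 3 with 27.4 CPM, was above the highest WT library with 17.7 CPM. Mitochondrial genes took 27.4%, 18.6% and 10.5% of the counts of KO replicates 1, 2 and 3, the order of Sox5 in these libraries, and 19.3% to 24% in WT libraries. Their part in the Sox5 values was not tested beyond leaving these genes out, with a log2FC of 1.41. The log2FC was 1.41 (SE 0.277, adjusted p = 0.0182). Its direction held in every fit with 1 library left out, with 1.12 to 1.68, but the adjusted p rose to 0.0889, 0.0968, 0.0535 and 0.0644 without WT replicate 2, WT replicate 3, KO replicate 1 and KO replicate 2.

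Sox6, a SoxD gene known from cartilage and red cell development, had 682, 669 and 806 counts across WT sperm, against 1434, 2004 and 998 across KO sperm. KO replicates 1 and 2, with 40.9 and 36.2 CPM, lay above every WT library (15.9 to 20.7 CPM), and KO replicate 3, with 17.1 CPM, lay among them. The log2FC was 0.80 (SE 0.308, adjusted p = 0.104), and without KO replicate 3 it was 1.18 (adjusted p = 0.005). Sox13, a SoxD gene known from T cells and from binding to Tcf1, had 228, 274 and 489 counts across WT replicates, against 253, 448 and 236 across KO replicates. The groups overlapped, and the log2FC was -0.31 (SE 0.305, adjusted p = 0.49). The proportions among the 3 SoxD genes can be read within a library, free of scaling between libraries, a comparison chosen after the values were seen. There were 0.855, 0.91 and 0.681 Sox5 counts per Sox6 count across WT replicates, against 1.29, 1.01 and 1.6 across KO replicates. There were 0.334, 0.41 and 0.607 Sox13 counts per Sox6 count in WT and 0.176, 0.224 and 0.237 in KO. Neither ratio overlapped between the groups, and each exact two-sided permutation test gave p = 0.1, the smallest value that 3 against 3 libraries allow.

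Among the SoxC genes, Sox4, an activator in lymphoid and neural progenitors, had 522, 1322 and 1449 counts across WT sperm, against 621, 1083 and 935 across KO sperm. WT replicate 1, with 15.8 CPM, stood at the level of the KO libraries (16 to 19.6 CPM), while the other WT libraries had 31.4 and 31.3 CPM. The log2FC was -0.56 (SE 0.273, adjusted p = 0.18), and -0.83 (adjusted p = 0.0331) without WT replicate 1. Sox12 had 501, 741 and 1263 counts across WT replicates, against 574, 948 and 478 across KO replicates, overlapping groups with a log2FC of -0.53 (SE 0.321, adjusted p = 0.267).

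The SoxF genes were near the limit of detection in sperm. Sox17, a regulator of endoderm and arterial endothelium, had 12, 11 and 32 counts across WT replicates, against 39, 62 and 48 across KO replicates, or 0.439 ± 0.224 and 1.02 ± 0.169 CPM (SD, n = 3). The groups did not overlap, and the log2FC was 1.19 (SE 0.436, adjusted p = 0.0924). Gm37587, annotated on the opposite strand with 804 exonic bases in common with Sox17, had 25, 14 and 10 counts across WT replicates, against 58, 47 and 7 across KO replicates. The use of strand in the counting is not given in the sources used here, so reads of the pair cannot be told apart. Sox18 had 4 to 10 counts in WT libraries and 5 to 16 in KO libraries, and Sox15 had 5 to 16 and 11 to 20. Both pairs of groups overlapped, with log2FC values of 0.53 (95% confidence interval -1.04 to 2.09) and 0.55 (-0.80 to 1.90). No change of either gene was detected in sperm at these low counts. Groups did not overlap, with KO higher, for 2 of the 8 genes, Sox5 and Sox17, against 19.2% of all tested genes, and with KO lower for none, against 19.2%.

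**Figure D2:**
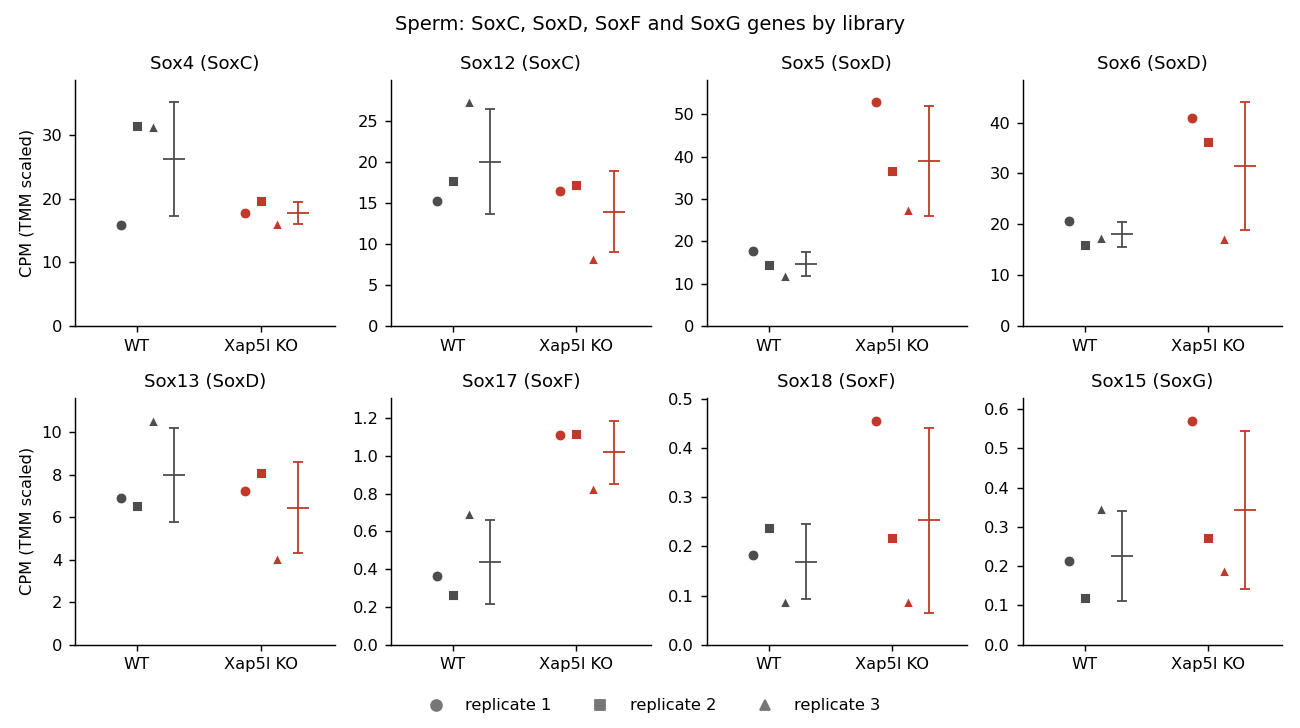
CPM (TMM scaled, linear axes from 0) of each of the 8 genes in each of the 3 WT and 3 Xap5l KO sperm libraries, with mean and SD beside the points. Sox5 and Sox17 show no overlap, and KO replicate 3 of Sox6 lies among the WT libraries.

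In Xap5 cKO testes, 5 of the 8 genes rose under scaling to the whole library, here meaning an adjusted p under 0.05 at any fold. These were Sox4, Sox12, Sox5, Sox13 and Sox18, and none fell under this scaling, beside 25% of all tested genes that rose and 28.1% that fell. Sox5 alone passed the fold of 2 as well, with 2.01-fold, and Sox18 was just below it with 1.98-fold. By both criteria 4.15% of tested genes were called higher and 10.9% lower. The cKO libraries lay above all WT libraries for 6 of the 8 genes, against 29.9% of all tested genes, and below them for none, against 32.4%. The median log2FC of the 8 was 0.47, and that of all tested genes was -0.01. These changes are relative to the library. With size factors taken from the Sertoli cell markers, which moves the median of all genes by -0.58, the log2FC values of Sox4, Sox12, Sox13, Sox17 and Sox6 turned to -0.01, -0.27, -0.08, -0.15 and -0.55, while those of Sox5 and Sox18 were 0.42 and 0.41. These factors weigh all markers alike. The marker Rhox5 had 306, 347 and 46 counts across cKO replicates, which lowers the factor of cKO replicate 3. Its part in these values was not tested.

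Sox5 had 115, 106 and 139 counts across WT testes, against 225, 228 and 223 across Xap5 cKO testes, or 3.40 ± 0.478 and 6.82 ± 0.157 CPM (SD, n = 3). The groups were well apart and the cKO libraries almost equal. The log2FC was 1.004 (SE 0.209, adjusted p = 0.00316), and leaving out WT replicate 2 or cKO replicate 1 took it to 0.90 or 0.99, below the fold threshold. The testis table holds a further entry named Sox5-2, whose coverage is not given in the sources used here, and it was singled out after its values were seen. It had 106, 69 and 136 counts across WT replicates, against 221, 214 and 171 across cKO replicates, a log2FC of 1.05 (adjusted p = 0.0131). Summed into Sox5, the log2FC of the pair was 1.03 (adjusted p = 0.00197). Sox6 did not pass the test, with 1894, 1785 and 1771 counts across WT replicates, against 1601, 1862 and 1764 across cKO replicates. Its groups overlapped and its log2FC was 0.03, with a 95% confidence interval from -0.17 to 0.24. With Sertoli marker size factors it was -0.55 (adjusted p = 0.00432), close to the median of -0.59 over all genes under that scaling, so this p shows no fall particular to Sox6. There were 0.0607, 0.0594 and 0.0785 Sox5 counts per Sox6 count across WT replicates, against 0.141, 0.122 and 0.126 across cKO replicates, again without overlap (exact two-sided permutation p = 0.1, the smallest possible). This ratio leaves out the counts of Sox5-2. Sox13 counts per Sox6 count were 0.429, 0.545 and 0.669 in WT and 0.779, 0.749 and 0.731 in cKO testes, higher in the cKO where they had been lower in KO sperm. The other 2 ratios computed, Sox4 per Sox12 and Sox18 per Sox17, were 1.19 and 1.46 times as high in cKO as in WT testes and did not overlap either, with the same p of 0.1 by exact permutation for each of the 3. In sperm they overlapped, at 1.04 and 0.526 times WT (exact permutation p = 0.7 and 0.4).

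Sox13 had 812, 973 and 1184 counts across WT testes, against 1247, 1395 and 1290 across cKO testes. Every cKO library, at 38.8 to 40.9 CPM, lay above the highest WT library, replicate 3 with 32.9 CPM, and the log2FC was 0.50 (SE 0.124, adjusted p = 0.00752). The further entry Sox13-2, likewise singled out later, had 57, 40 and 93 counts across WT replicates, against 124, 83 and 100 across cKO replicates, and its groups overlapped.

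Sox4 and Sox12 rose under library-wide scaling, and neither did with Sertoli marker size factors (log2FC -0.01 and -0.27). Sox4 had 3122, 3708 and 4319 counts across WT testes, against 4959, 4901 and 5458 across cKO testes, or 105 ± 13.8 and 155 ± 11 CPM (SD, n = 3), a log2FC of 0.56 (SE 0.0987, adjusted p = 0.00127). Sox12 had 3352, 3756 and 3955 counts across WT replicates, against 4319, 4420 and 4125 across cKO replicates, a log2FC of 0.32 (SE 0.0645, adjusted p = 0.00289). In both genes WT replicate 3 was the WT library nearest to the cKO group. Sox11, the remaining SoxC gene, went the other way, with 343, 489 and 559 counts across WT replicates, against 142, 217 and 90 across cKO replicates and a log2FC of -1.53 (SE 0.306, adjusted p = 0.00255).

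Among the SoxF genes, Sox18, a regulator of lymphatic and vascular endothelium, had 306, 404 and 354 counts across WT testes, against 556, 693 and 722 across cKO testes, or 10 ± 0.997 and 19.9 ± 2.36 CPM (SD, n = 3). The groups were far apart, and the log2FC was 0.99 (SE 0.154, adjusted p = 0.000631). Without WT replicate 2 or cKO replicate 1 it was 1.07 or 1.08 and passed the fold threshold. Sox17 had 189, 258 and 196 counts across WT replicates, against 255, 309 and 250 across cKO replicates, which did not overlap but missed the threshold, with a log2FC of 0.44 (SE 0.195, adjusted p = 0.0874). Sox7, the remaining SoxF gene, had 27, 26 and 84 counts across WT replicates, against 58, 46 and 83 across cKO replicates, with overlapping groups and a log2FC of 0.56 (adjusted p = 0.393). Sox15, the SoxG gene, had 3, 26 and 23 counts across WT replicates, against 0, 0 and 26 across cKO replicates. The log2FC was -0.87 (SE 1.33, adjusted p = 0.611). Its 26 counts in the cKO all lay in replicate 3, and without that library the log2FC was -7.07 and Sox15 was called lower (adjusted p = 0.0262). Of the Sox15 sequence, 31 exonic bases are also exonic in Mpdu1 on the other strand, a gene with 1426 to 1925 counts per testis library.

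**Figure D3:**
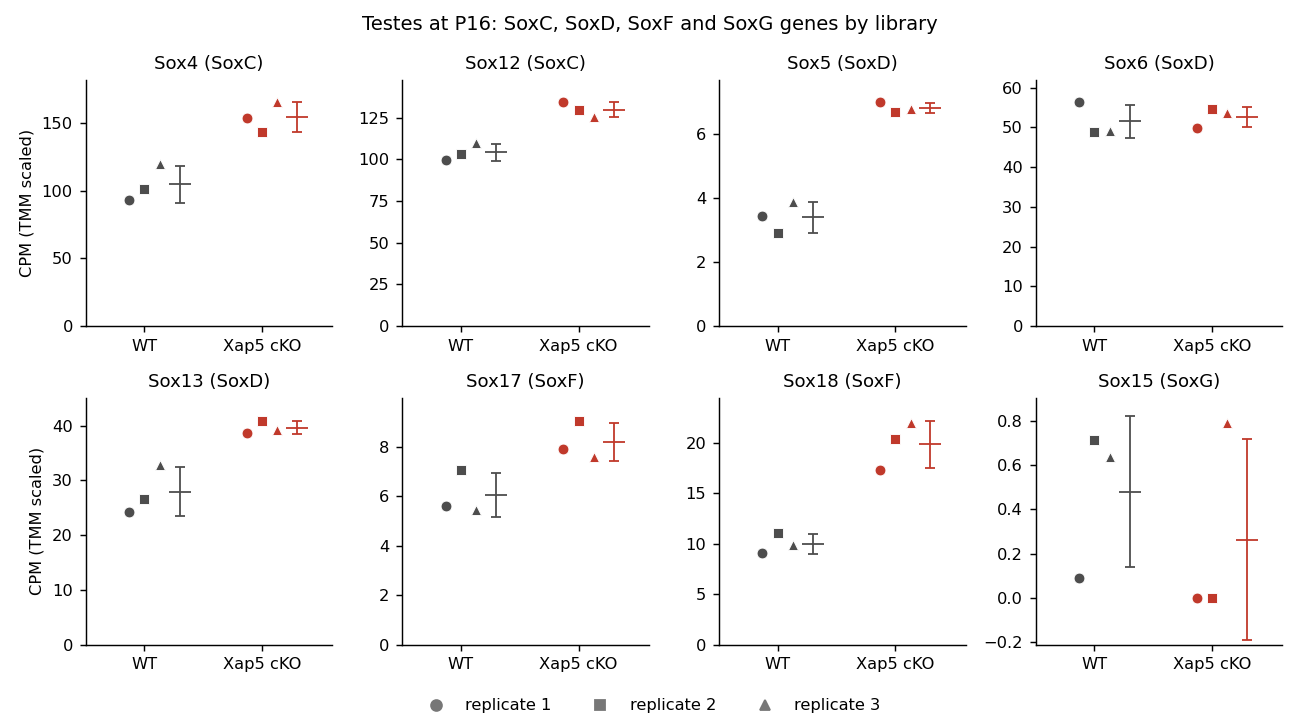
CPM (TMM scaled, linear axes) of each of the 8 genes in each of the 3 WT and 3 Xap5 cKO testis libraries, with mean and SD beside the points. Only Sox6 and Sox15 show overlapping groups.

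**Figure D4:**
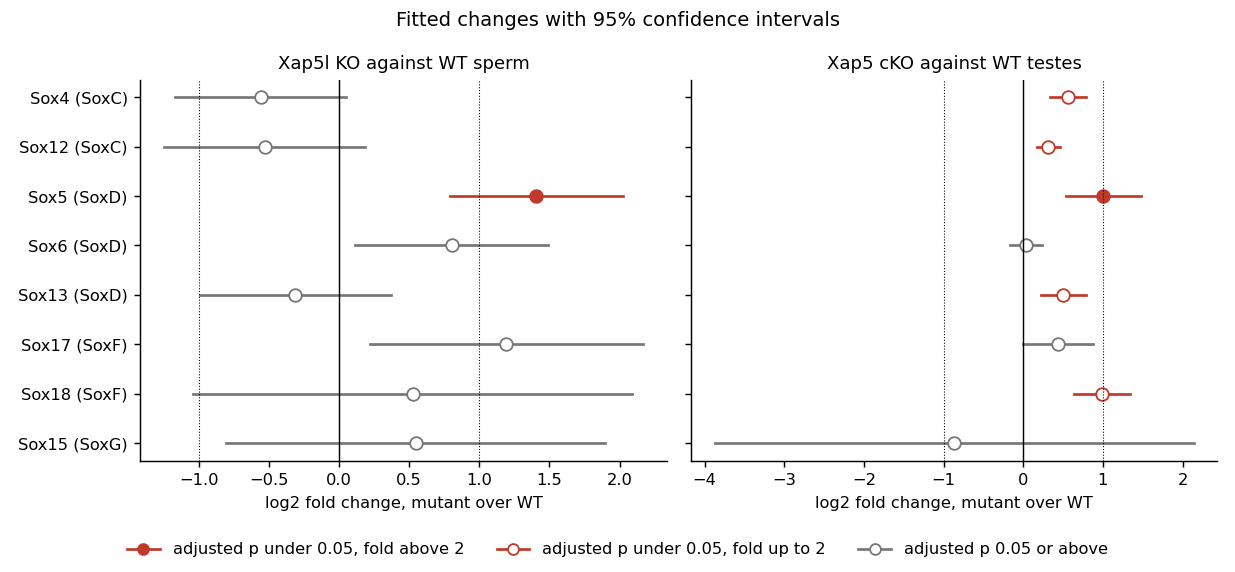
Log2 fold changes (log2FC) of the 8 genes with 95% confidence intervals, Xap5l KO against WT sperm on the left and Xap5 cKO against WT testes on the right, with dotted lines at a fold of 2. The scales of the panels differ, and Sox5 is the gene called in each comparison, with 1.41 and 1.004.

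Levels can be compared between genes only per length, here in CPM per kb of merged exons. In WT sperm Sox4 had 5.46 ± 1.87 and Sox12 4.50 ± 1.43 CPM per kb (SD, n = 3), which did not differ beyond their spread. Gm26735, on the opposite strand, has 2616 exonic bases in common with the 4795 of Sox4, and it was listed at 0 in all sperm libraries. Sox4 and Sox12 were followed by Sox13 with 1.85 ± 0.516, then by Sox6 with 1.21 ± 0.165 and Sox5 with 1.02 ± 0.203 CPM per kb, whose libraries overlapped. Sox15, Sox18 and Sox17 were at 0.262, 0.104 and 0.0919 CPM per kb. In Xap5l KO sperm Sox5 had 2.71 ± 0.899 CPM per kb, Sox4 3.71 ± 0.366, Sox12 3.12 ± 1.11 and Sox6 2.12 ± 0.850, and the Sox5 libraries overlapped those of each of the other 3 genes. The place of Sox5 depends on the length used. All its merged exons make up 14.376 kb. Divided instead by the 1734 bases of the longest short coding transcript, the Sox5 level in WT sperm was 8.46 ± 1.69 CPM per kb. This value lay above Sox4, but it takes every Sox5 read to come from that transcript, which was not measured. The other genes kept their merged exons, and the choice was made after the values were seen.

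In WT testes Sox12 and Sox4 led with 23.4 ± 1.16 and 21.9 ± 2.88 CPM per kb, indistinguishable within their spread. Sox13 with 6.48 ± 1.04 and Sox18 with 6.18 ± 0.616 CPM per kb overlapped as well, and Sox6 with 3.47 ± 0.284 and Sox17 with 1.27 ± 0.187 followed. Sox15 had 0.558 ± 0.396 CPM per kb. Sox5 had the lowest mean with 0.236 ± 0.0333 CPM per kb, or 1.96 ± 0.276 CPM per kb with the short length, on the same assumption. Both values leave out the counts of the further entry Sox5-2, so the level of Sox5 in testes may be higher. By merged exons the Sox5 libraries lay within the range of Sox15, which had 0.104 CPM per kb in WT replicate 1 and 0.828 in WT replicate 2. In Xap5 cKO testes Sox18, with 12.3 ± 1.46 CPM per kb, lay above Sox13, with 9.19 ± 0.268, without overlap of their libraries.

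Of 4 genes linked to SoxD proteins in sperm tails, all were called higher in sperm, as was Sox5, while in testes Spag6l and Spag16 were called lower and the other 2 were not called. The list holds Spag6 and its close copy Spag6l, which encode a central-pair protein of the axoneme, Spag16, another central-pair gene, and Catsper1, a subunit of the sperm calcium channel. In Xap5l KO sperm all 4 were called higher, beside 7.59% of all tested genes, with a median log2FC of 1.44. Without WT replicate 2, WT replicate 3 or KO replicate 2, however, only 1 gene of the whole sperm table was called higher, and none of these 4 was (Spag6 with adjusted p = 0.0734, 0.0812 and 0.0565). Spag6 had 434, 512 and 523 counts across WT replicates, against 1903, 3255 and 2525 across KO replicates, a log2FC of 2.09 (adjusted p = 0.0118). Catsper1 had a log2FC of 1.70 (adjusted p = 0.0314), Spag6l of 1.17 (adjusted p = 0.0215) and Spag16 of 1.05 (adjusted p = 0.0263). In Xap5 cKO testes 2 of the 3 tested genes were called lower. Spag6l had 2336, 2177 and 1044 counts across WT testes, against 51, 36 and 27 across cKO testes, a log2FC of -5.51 (adjusted p = 1.52e-05), and Spag16 had one of -5.76 (adjusted p = 5.94e-05). Spag16 had 8, 5 and 27 counts across cKO testes, and its log2FC ranged from -6.79 to -5.34 with 1 library left out. Spag6, with 29 to 63 counts in every testis library, had a log2FC of 0.02 (adjusted p = 0.972), and reads of Spag6 and Spag6l may be hard to assign between the copies. Catsper1 was listed at 0 in all testis libraries.

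Some lists of germ cell markers were called beside the tail genes. In sperm all 5 round spermatid markers were called higher, beside 7.59% of all tested genes, although without WT replicate 2, WT replicate 3 or KO replicate 2 none of the 4 named here was (Spaca1 with adjusted p = 0.0734, 0.0812 and 0.0565). Their summed level went from 91.8 ± 15.8 to 269 ± 83.5 CPM (SD, n = 3). Tssk1, the most abundant of them, had 22.3 to 36.3 CPM in WT and 62.7 to 84.9 CPM in KO libraries, and the log2FC values of Spaca1, Acr and Izumo1 were 1.80, 1.65 and 1.65. KO replicate 3 had the lowest round spermatid sum of the KO libraries, 175 CPM, and it was also the lowest KO library for each of the 8 Sox genes. Other germ cell lists had another order. The pachytene sums were 2266, 2317 and 3018 CPM in KO replicates 1, 2 and 3, and the elongating spermatid sums 36758, 23126 and 42886 CPM, both highest in KO replicate 3. In testes the 8 pachytene spermatocyte markers summed to 1843, 1784 and 881 CPM in WT and to 127, 128 and 193 CPM in cKO libraries, and 7 of them were called lower, beside 10.9% of all tested genes. Hspa2 led them with 382 to 645 CPM in WT and 112 to 171 CPM in cKO libraries, and Piwil1, Ldhc and Pgk2 had log2FC values of -6.30, -6.19 and -5.10. WT replicate 3, which had the lowest pachytene sum of the WT libraries, was also the WT library nearest to the cKO group for Sox4, Sox12, Sox13 and Sox5, while for Sox17 and Sox18 this was replicate 2. The part of these shifts in the Sox results was not tested.

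**Figure D5:**
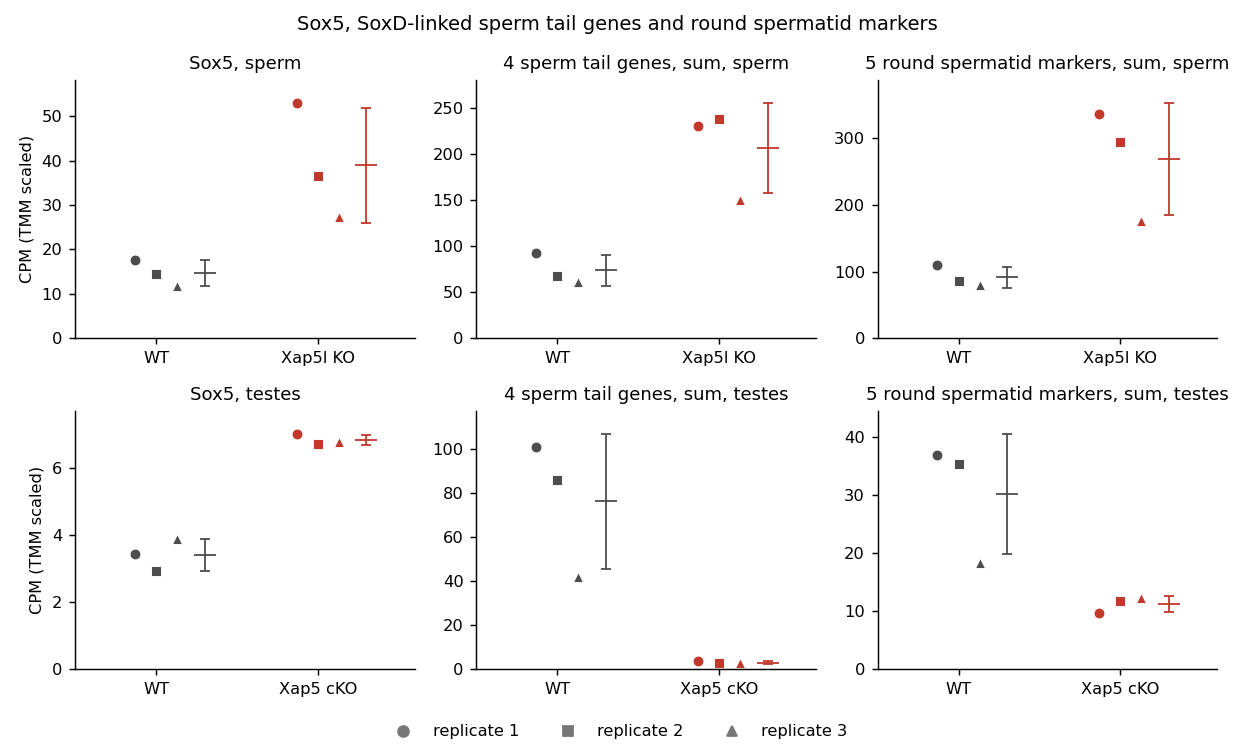
Sox5, the summed sperm tail genes and the summed round spermatid markers in CPM (TMM scaled, linear axes from 0) by library, with mean and SD, sperm above and testes below. In sperm all 3 panels are higher in the KO, while in testes Sox5 is higher and both sums are lower in the cKO.

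Of the cartilage genes that long SoxD proteins support, 2 of 4 tested were called higher in sperm, beside 7.59% of all tested genes, and the same 2 of 6 tested were called lower in testes, beside 10.9%. Neither passed in sperm once WT replicate 2, WT replicate 3 or KO replicate 2 was left out. Comp, a matrix protein of cartilage that was the most abundant of them in sperm, had log2FC values of 1.46 (adjusted p = 0.0139) in sperm and -3.08 (adjusted p = 0.00113) in testes. Col2a1, the main collagen of cartilage, had 1.36 (adjusted p = 0.0286) and -1.31 (adjusted p = 0.00124). The median log2FC was 0.92 over 4 tested genes in sperm and -0.71 over 6 in testes, where Hapln1 had 5.01 CPM in WT and 7.96 in cKO (adjusted p = 0.198), narrowly the highest mean over all 6 libraries but below Col2a1 (9.24 CPM) and Comp (8.79 CPM) in WT.

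Of the 5 SoxC-linked genes, none was called among the 3 tested in sperm, where Pou3f3, a neural POU factor, had 61.1 ± 13.9 CPM in WT and 43.1 ± 5.95 in KO (SD, n = 3, adjusted p = 0.16). In testes, where all 5 were tested, Pou3f2 was called lower with a log2FC of -2.07 (adjusted p = 0.017), a call lost without WT replicate 2, WT replicate 3 or cKO replicate 2, and the neuronal tubulin gene Tubb3, the most abundant, had 0.01 (adjusted p = 0.934). Of the SoxF-linked genes of arteries and lymphatics, none of 10 was called in sperm, and Notch1, the most abundant there, had a log2FC of -0.29 (adjusted p = 0.354). Of 12 in testes, Vcam1, an adhesion molecule, was called higher with 1.32 (adjusted p = 8.59e-05), and the Notch targets Hey1 and Hey2 were called lower with -2.07 (adjusted p = 2.27e-05) and -1.02 (adjusted p = 0.0274), beside 4.15% of all tested genes called higher and 10.9% lower. The Hey2 call was lost without WT replicate 1, cKO replicate 1 or cKO replicate 3 (log2FC -0.80, -0.85 and -1.001), and that of Vcam1 with Sertoli marker size factors (0.73). Of the 3 SoxG-linked genes none was called in either comparison, and Foxk1, a myogenic partner of Sox15, had log2FC values of 0.19 (adjusted p = 0.651) and -0.03 (adjusted p = 0.76). The Tcf and beta-catenin genes, with which SoxD and SoxF proteins interact, gave 1 call lower of 8 in each comparison, beside 1.27% of all tested genes in sperm and 10.9% in testes. Tcf7 was called lower in sperm with -1.05 (adjusted p = 0.019) and Lef1 in testes with -3.04 (adjusted p = 0.000149). The Tcf7 call was lost with RLE size factors (-0.99), under DESeq2 (-0.99) and without any 1 of 5 sperm libraries. Over the alternatives in processing its log2FC ranged from -1.05 to -0.98, so a further setting also missed the fold of 2. Ctnnb1 had log2FC values of -0.31 (adjusted p = 0.462) in sperm and 0.24 (adjusted p = 0.00668) in testes, the latter turning to -0.34 (adjusted p = 0.0371) with Sertoli marker size factors.

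The other Sox genes were read beside the 8. In sperm none of the 6 tested was called, beside 7.59% of all tested genes called higher and 1.27% lower. Sox30, a regulator of spermiogenesis, had 1355, 1266 and 1384 counts across WT replicates, against 3879, 4535 and 1542 across KO replicates (log2FC 1.12, adjusted p = 0.105), where KO replicate 3, at 26.5 CPM, again stood apart from the other KO libraries and lay below the WT range of 29.9 to 41.1 CPM. Sox1 had 20 to 27 counts in WT and 55 to 93 in KO (1.32, adjusted p = 0.0551), Sox9 had 300 to 861 and 284 to 606, Sox7 21 to 47 and 17 to 41, Sox10 7 to 37 and 18 to 41, and Sox8 11 to 19 and 0 to 26. Sox2, Sox3, Sox11, Sox14, Sox21 and Sry had at most 16 counts in any sperm library and were not tested. Of 8 other Sox genes tested in testes, 1 was called higher and 2 lower, beside 4.15% and 10.9% of all tested genes. In testes Sox2 was called higher from a low level, with 2, 9 and 7 counts across WT replicates, against 12, 34 and 32 across cKO replicates (log2FC 2.19, adjusted p = 0.0267, and above 0.05 in 5 of the 6 fits with 1 library left out), and Sox11 and Sox30 were called lower, the latter with -1.40 (adjusted p = 0.000339). Under library-wide scaling the Sertoli cell genes Sox9 and Sox8 rose by log2FC values of 0.85 (adjusted p = 0.000178) and 0.75 (adjusted p = 3.64e-05). Over the alternatives in processing the Sox9 value ranged from 0.27 to 0.86. Sox3, expressed in spermatogonia, had a log2FC of -0.91 (adjusted p = 0.000213). Sox10 had 104 to 176 counts in testis libraries and a log2FC of -0.23 (adjusted p = 0.499), Sox1, Sox14 and Sox21 had at most 24 counts and were not tested, and Sry was listed at 0 in all testis libraries.

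Markers of somatic cells were read in testes beside the 5 Sox genes that rose there. The 8 Sertoli cell markers summed to 4734 ± 205 CPM in WT and 8394 ± 839 in cKO (SD, n = 3), and 7 of 8 rose, beside 25% of all tested genes. Clu was the most abundant with 3197 to 3554 and 5513 to 7096 CPM, while Amh was called higher with a log2FC of 1.14. Of 14 endothelial markers 6 rose, beside 25% of all tested genes, and Erg was called lower with -1.01. That call was lost under DESeq2 (-0.999) and without WT replicate 3, cKO replicate 2 or cKO replicate 3. Over the alternatives in processing the Erg value ranged from -1.59 to -0.97, so a further setting also missed the fold of 2. The sum of the 14 endothelial markers went from 173 ± 21.4 to 255 ± 9.84 CPM. Their most abundant gene, Eng, went from 36.3 to 61 CPM, and of the defining markers Cdh5 rose from 34.3 to 59.1 CPM (adjusted p = 0.000458) while Pecam1 had 14 and 17.1 CPM (adjusted p = 0.142). The sums of 6 Leydig, 10 leukocyte and 5 peritubular myoid markers went from 280 to 591, from 127 to 271 and from 741 to 990 CPM. In these lists 3, 7 and 3 genes rose, the 7 being of 8 leukocyte markers tested, beside 25% of all tested genes. Insl3, Lyz2 and Acta2 were the most abundant of these lists, and Lhcgr, Hsd3b1, Csf1r, Cd74 and Adgre1 had log2FC values of 1.51, 1.06, 1.25, 1.20 and 1.16. With 1 library left out, Hsd3b1 went down to 0.83 and Adgre1 to 0.99, below the fold of 2. Lhcgr, Csf1r and Cd74 stayed above that fold, at 1.25, 1.14 and 1.07 or more. With Sertoli marker size factors none of these called Leydig and leukocyte markers passed the fold of 2, with log2FC values of 0.92 for Lhcgr and 0.64 for Csf1r. The Sertoli marker Amh had 0.57 and did not pass either. That scaling brings Sertoli markers toward no change by construction, so nothing is read from the Amh value. S100a8 and S100a9 were listed at 0 in testes. The spermatogonial markers went in sum from 817 to 510 CPM, with 7 of 8 lower at any fold, beside 28.1% of all tested genes, Gfra1 higher (log2FC 0.56, adjusted p = 0.0321) and Uchl1 on top, and Stra8, Id4 and Sohlh1 had log2FC values of -1.93, -1.54 and -1.15. The early meiotic markers went from 713 to 442 CPM, all 5 lower at any fold, with Sycp3 on top and log2FC values of -2.74, -1.44 and -1.31 for Spo11, Dmc1 and Meiob. Of the other lists, erythroid markers gave no call and summed to 52.1 and 68.9 CPM, with Hbb-bs on top. Epcam led the general epithelial list with 55.4 and 43.6 CPM, and Krt18 was called higher with 3.41. Krt18 had 0, 4 and 6 counts across WT testes, and its log2FC ranged from 2.86 to 4.10 with 1 library left out. Of the epididymal list only Aqp9 was tested, with 0, 12 and 0 counts in cKO and a log2FC of -6.41 that ranged from -11.49 to -5.85 with 1 library left out, and 4 of 8 genes were listed at 0. Of the round spermatid list 1 of 4 tested, Acr, was called lower, beside 10.9% of all tested genes. Acr had 2, 0 and 9 counts in cKO and a log2FC of -7.48 that ranged from -9.25 to -6.88 with 1 library left out. No elongating spermatid gene was tested, with Prm2 listed at 0. The part of these cells in the Sox values was not tested.

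Markers of other cell types were counted in the sperm libraries of both genotypes. The protamine gene Prm2, a defining sperm transcript, had 8241 to 13993 CPM in WT and 14383 to 23961 CPM in KO libraries, and no gene of its list of 5 was called. The 10 leukocyte markers summed to 997 ± 83.9 CPM in WT and 444 ± 185 in KO (SD, n = 3), with Lyz2 the most abundant at 566 and 213 CPM, and S100a9, C1qa and Cd74 were called lower, beside 1.27% of all tested genes, with log2FC values of -2.09, -1.04 and -1.04. The endothelial markers summed to 15.5 and 14 CPM, 9 of 14 were under 1 CPM in every library, and Pecam1 led with 4.98 and 3.12 CPM. Epididymal markers summed to 7741 and 5634 CPM, of which Crisp1 made up 6199 and 4580, and general epithelial markers to 381 and 282, with Krt19 on top. Hbb-bs had 1485 to 7010 CPM in WT and 572 to 1908 in KO libraries. Of the 8 Sertoli markers Cldn11 was called lower with -1.53, while Clu, also made by epididymal epithelium, had 687 and 1204 CPM (adjusted p = 0.0703). The pachytene list gave 3 calls higher of 8, beside 7.59% of all tested genes, Hspa2, Adam2 and Ldhc with 1.67, 1.46 and 1.05, and Pgk2 led it with 1027 and 1390 CPM. None of the calls of Hspa2, Adam2, Ldhc, S100a9, C1qa, Cd74 and Cldn11 held without WT replicate 2, WT replicate 3 or KO replicate 2, and those of C1qa and Cd74 were also lost with library size alone (log2FC -0.98 and -0.99). The Cd74 value ranged from -1.04 to -0.98 over the alternatives in processing, so a further setting also missed the fold of 2. The spermatogonial, early meiotic, Leydig and myoid lists, led by Kit, Sycp3, Insl3 and Acta2, gave no call. The part of these cells in the Sox values was not tested.

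The Sox5 and Sox6 loci hold further annotated RNAs that were read as well, chosen after their values were seen. Sox5os1, on the strand opposite to Sox5, has 1330 exonic bases in common with it and had 49, 53 and 37 counts across WT sperm, against 44, 73 and 86 across KO sperm (log2FC 0.20, adjusted p = 0.693). At 37 to 86 counts it was far below Sox5, whose counts in sperm were 549 to 2023. Sox5it, an RNA within a Sox5 intron on the same strand, had 12, 14 and 14 counts across WT replicates, against 34, 22 and 47 across KO replicates (1.11, adjusted p = 0.123), and Sox5os3 had 41 to 63 and 74 to 135 (0.68, adjusted p = 0.167). Sox6os, antisense to Sox6, had 11, 10 and 18 counts across WT replicates, against 1, 4 and 10 across KO replicates (-1.70, adjusted p = 0.096). Its log2FC ranged from -2.43 to -1.37 with 1 library left out. Sox5os2 and Sox5os5 were listed at 0 in sperm, and Sox5os4 had at most 3 counts.

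For each of the 8 genes with a mean of at least 1 CPM, the genes with the most similar profile were found by Pearson correlation of log2 CPM over the 6 libraries of a table, among 16239 genes in sperm and 15221 in testes. With 6 points in 2 groups these values are a description only. In sperm the nearest profiles to Sox5 were those of Hyal5, a sperm hyaluronidase gene, Gm43030 and Ccdc183 (r of 0.997, 0.997 and 0.996). Those nearest to Sox6 were Celf3, Ccdc66 and Pom121 (0.998, 0.997 and 0.997), to Sox4 Fndc3b, Pgm1 and Atg4c (0.999, 0.998 and 0.996), to Sox12 Max, Kdf1 and Nelfa (0.997, 0.997 and 0.996) and to Sox13 Dcakd, Egr3 and Inppl1 (0.993, 0.992 and 0.991). In testes those nearest to Sox5 were the X-linked ribosomal protein gene Rps4x, Ano6 and Rnf13 (0.9996, 0.9996 and 0.999). Those nearest to Sox4 were Nedd9, Fam214a and Adgrl2 (0.999 each), to Sox12 Scara5, Grin2c and Ric3 (0.999, 0.999 and 0.998), to Sox13 Shisa8, Fam102b and D5Ertd579e (0.999, 0.995 and 0.995), to Sox17 Ttc38, Spata9 and Auts2 (0.988, 0.987 and 0.987) and to Sox18 Mex3d, Rdh13 and Zmiz1 (0.998, 0.997 and 0.997). Sox6, which did not separate the genotypes, was nearest to Tmco1, Txndc12 and Oard1-2 (0.984, 0.978 and 0.952).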

How the data were processed

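Poly(A) RNA libraries were sequenced by the authors as paired-end reads of 150 bp. Per the labels and the study's methods, reads were trimmed and mapped to GRCm38/mm10 with HISAT2 and assembled with StringTie, and the deposited tables hold whole-number counts per gene, 1 table per tissue, without normalization. The testis table lists 1609 entries whose name carries an added number, such as Sox5-2, and that for sperm lists 17. The counting tool, the treatment of reads that map to several genes and the use of strand are not given in the sources used here. Each table was fitted alone with edgeR 4.0.16 in R 4.3.3 (filterByExpr, TMM, quasi-likelihood test with genotype as the only term, Benjamini-Hochberg adjustment over all genes tested), and tested on simulated data. The fits had a common BCV (biological coefficient of variation) of 0.287 for sperm and of 0.174 for testes. With 3 libraries a group, described as biological replicates, exact tests of 1 gene cannot go below p = 0.1.

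The genes, lists and tests were chosen with earlier results of these data known. Named were the 8 genes, every other Sox gene, Fam50a and Fam50b, of each list the most abundant tested gene and up to 3 called genes with the largest change, and for each of the 8 genes with a mean of at least 1 CPM the 3 genes with the most similar profile. Gene positions came from GENCODE vM21 and promoter windows from RefSeq. Alternatives were other filters, scalings, DESeq2 1.42.0, a replicate block, summed entries, other thresholds and each library left out. Figures were drawn with matplotlib 3.10.9 in Python 3.11.15.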

Additional observations from a re-analysis of the deposited data

How the results depend on the processing

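Sox5 was called higher in sperm under no filter, a minimum of 10 counts in every library, RLE size factors, library size alone, DESeq2, summed entries, mitochondrial genes left out and the replicate block, but with 1 library left out the number of called genes among the 8 ranged from 0 to 2, and over all genes from 1 to 2402 higher and from 1 to 443 lower. In sperm, library size alone left 149 genes lower, the unadjusted p gave 2 of the 8 and 2385 genes higher and 605 lower, and dropping the fold threshold gave 643 lower. Whether the replicate numbers pair the samples could not be settled with 3 libraries a group. Deviations of same-numbered sperm libraries correlated at 0.149, -0.0229 and -0.0809, and those of testis libraries at 0.0125, -0.0141 and -0.00805. Not every library correlated best with its own number, although WT and KO replicate 1 of sperm did. These libraries also had the lowest TMM factors in sperm, 0.821 and 0.808. With the replicate block 147 genes were lower in sperm against 267 without it, and no call among the 8 changed. In testes, none of the 8 was called with a minimum of 10 counts in every library (Sox5 at 0.99) or with Sertoli marker size factors, which gave 102 genes higher and 4340 lower, so that calls higher went from 27.5% to 2.3% of all calls. Without the fold threshold 5 of the 8 were higher, with 4202 genes higher and 4734 lower. With 1 library left out, 0 to 1 of the 8 were lower, the 1 being Sox15 without cKO replicate 3, the library that held its 26 counts.

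For turns of direction with 1 library left out, the cause was not tested. In sperm the log2 fold changes with 1 library left out ranged from -0.51 to 0.017 for Sox13, from -0.15 to 1.04 for Sox18, from -0.023 to 0.50 for Foxk1, from -0.15 to 0.48 for Acta2 and from -0.028 to 0.39 for Sox5os1. In testes they ranged from -0.0046 to 0.10 for Sox6, from -0.049 to 0.075 for Tubb3, from -0.090 to 0.012 for Foxk1 and from -0.062 to 0.60 for Hbb-bs. Sertoli marker size factors lower all genes together, by 0.58 at the median, and so turned small upward values, among them those of 5 of the 8 genes. With them Sox4 had -0.015, Sox6 -0.55, Sox12 -0.27, Sox13 -0.076, Sox17 -0.15, Tubb3 -0.58, Ctnnb1 -0.34, Acta2 -0.26 and Hbb-bs -0.36, and with a minimum of 10 counts Tubb3 had -0.0020. Sox15 and Sox18 in sperm and Sox15 in testes did not pass that minimum. Sox15, Sox17 and Sox18 had only 4 to 62 counts per library in sperm, which limits what their fits can show.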
